A study of Mus musculus with 78 samples.

Results

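The cadherin and protocadherin genes were taken as the autosomal protein-coding genes of the mouse annotation whose symbol is Cdh or Pcdh followed by any letters and a closing number. The rule found 95 gene records with 94 symbols among 20807 autosomal protein-coding genes. Of these, 57 were clustered protocadherins, with 14 records in the alpha, 22 in the beta and 21 in the gamma group, and 38 were unclustered. The rule used the symbols only and no measured value.

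Cadherins are transmembrane proteins whose extracellular domains bind the same or a related cadherin on a neighbouring cell in the presence of calcium. Classical cadherins connect through catenins to the actin cytoskeleton, and M-cadherin (Cdh15) and N-cadherin (Cdh2) hold myoblasts together before and during fusion. Protocadherins are a related family that is best known from the nervous system, where a tandem array of clustered genes gives single neurons different surface identities. Polycomb repressive complex 2 (PRC2) contains EZH1 or EZH2, which methylate histone H3 at lysine 27 (H3K27me3), and SUZ12, a core subunit that the enzyme needs. Promoters of developmental genes of other lineages are its best known targets.

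Chromatin immunoprecipitation and sequencing (ChIP-seq) had been done in myotubes of C2C12, a mouse myoblast line, at 12, 16, 20, 24, 28 and 32 h after a serum shock that aligns the cells' circadian clocks. Bio-EZH1 was biotinylated EZH1α (the nuclear isoform with an Avi tag) pulled down with streptavidin from a sorted line in which endogenous Ezh1 was knocked down and BirA and the tagged protein were supplied by retrovirus. SUZ12 was, by the study's methods, precipitated with an antibody from the chromatin of that same line, in which endogenous Ezh1 was reduced. The names of the deposited SUZ12 lists hold the letters strep, while their labels give SUZ12 as the antibody. The labels were followed here, and every SUZ12 value rests on them. H3K27me3 was profiled in C2C12 for which labels and methods name no modification, and HA-EZH1 in C2C12 for which the labels give neither the antibody nor the construct. Each of the 4 profiles had 3 replicates at each of the 6 time points, so 72 peak lists were read, and 6 input samples had no list. The labels call the replicates biological but do not say whether each was a culture of its own, and p-values measure the spread between these libraries, whatever its source. At a q-value under 0.01 the lists held 7812 to 17787 peaks for Bio-EZH1, 18019 to 35004 for SUZ12, 18542 to 28105 for H3K27me3 and 1902 to 13137 for HA-EZH1. Sequencing depth is unknown from these files, and the absence of a peak is not the absence of binding. As a check of the material, Bio-EZH1 bound 7 of 7 measured genes of other lineages at some time point, against 12.4% of all autosomal genes. It also bound 2 of 9 muscle genes (Ckm and Acta1, 22.2%), so the muscle genes were not free of it. Ckm had promoter peaks in 18 libraries each of Bio-EZH1 and H3K27me3 and in 17 of SUZ12.

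A promoter peak was a peak with q under 0.01 that overlapped the 3 kb on either side of the annotated transcription start site (TSS). Binding at a time point required a promoter peak in all 3 replicates, with the 3 peaks overlapping each other. Fold enrichment is the ratio over local background that the peak caller gives and is not calibrated between libraries. The H3K27me3 lists hold broad peaks and the other lists narrow peaks, so their fold enrichments are not like measures.

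Promoter sequences of 22 of the 38 unclustered genes were matched by symbol in RefSeq (build GRCm38.p6, which is mm10), each from 250 bases before to 50 bases after a start site. A few that carry the results are printed 5′ to 3′ on the strand of the gene, with every CG dinucleotide in capitals. Cdh22 (chr2:165234688-165234987, minus strand) had a peak in every library of 3 profiles. Cdh6 (chr15:13173626-13173925, minus strand) was bound by the same 3 profiles with short peaks. Pcdh17 (chr14:84443313-84443612, plus strand) and Cdhr2 (chr13:54701213-54701512, plus strand) had H3K27me3 peaks from 16 h on. Cdh15 (chr8:122848124-122848423, plus strand, a RefSeq start 408 bases from the one used for the peaks) encodes the muscle cadherin. Pcdh18 (chr3:49757267-49757566, minus strand) had no promoter peak in any library.
Cdh22: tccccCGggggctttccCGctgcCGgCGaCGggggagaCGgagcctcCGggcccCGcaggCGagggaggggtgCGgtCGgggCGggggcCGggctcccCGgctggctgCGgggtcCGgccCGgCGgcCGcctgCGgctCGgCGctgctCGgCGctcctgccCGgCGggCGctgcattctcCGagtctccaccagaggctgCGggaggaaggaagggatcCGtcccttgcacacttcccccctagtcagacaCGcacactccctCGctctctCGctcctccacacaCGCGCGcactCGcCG
Cdh6: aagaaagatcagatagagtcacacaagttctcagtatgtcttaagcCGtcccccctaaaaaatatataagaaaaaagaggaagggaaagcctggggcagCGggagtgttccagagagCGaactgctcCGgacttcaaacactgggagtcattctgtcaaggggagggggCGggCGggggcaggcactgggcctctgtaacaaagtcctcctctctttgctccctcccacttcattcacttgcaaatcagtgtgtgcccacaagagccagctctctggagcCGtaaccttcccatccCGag
Pcdh17: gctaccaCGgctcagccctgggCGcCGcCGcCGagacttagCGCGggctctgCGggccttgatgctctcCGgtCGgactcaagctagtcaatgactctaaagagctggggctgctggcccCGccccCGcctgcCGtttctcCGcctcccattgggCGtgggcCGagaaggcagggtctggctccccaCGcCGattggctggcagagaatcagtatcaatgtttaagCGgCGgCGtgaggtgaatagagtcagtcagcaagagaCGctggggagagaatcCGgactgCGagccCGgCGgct
Cdhr2: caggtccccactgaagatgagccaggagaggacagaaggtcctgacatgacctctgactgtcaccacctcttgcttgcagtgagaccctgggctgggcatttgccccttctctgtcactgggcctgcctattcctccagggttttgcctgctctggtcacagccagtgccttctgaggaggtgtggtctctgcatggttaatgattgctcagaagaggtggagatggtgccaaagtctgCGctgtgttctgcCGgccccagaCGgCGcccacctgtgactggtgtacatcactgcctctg
Cdh15: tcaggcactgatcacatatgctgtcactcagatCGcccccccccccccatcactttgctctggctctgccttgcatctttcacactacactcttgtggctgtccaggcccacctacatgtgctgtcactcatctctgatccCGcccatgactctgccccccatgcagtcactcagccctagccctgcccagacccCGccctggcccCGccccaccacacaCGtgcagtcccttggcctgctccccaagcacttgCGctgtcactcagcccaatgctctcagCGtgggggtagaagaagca
Pcdh18: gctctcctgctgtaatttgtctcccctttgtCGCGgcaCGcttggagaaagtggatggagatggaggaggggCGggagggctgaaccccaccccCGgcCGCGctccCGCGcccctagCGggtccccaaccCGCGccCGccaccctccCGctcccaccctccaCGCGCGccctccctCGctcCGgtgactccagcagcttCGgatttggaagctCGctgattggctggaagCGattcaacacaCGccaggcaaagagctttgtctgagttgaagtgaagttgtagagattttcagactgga

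These 300 bases held 38 CG dinucleotides in Cdh22, 26 in Pcdh17, 23 in Pcdh18, 8 in Cdh6, 7 in Cdh15 and 4 in Cdhr2. Among these printed promoters, Pcdh18, which had no peak, held nearly as many as Pcdh17, and Cdhr2 held few. The matched promoters do not include those of Pcdh1, Cdh1 and Cdh16, and the window is shorter than the one searched for peaks. A link between CG number and binding was not tested. The 11 matched promoters bound by H3K27me3 at any time point held 2 to 38 CG (median 9), and the 11 not bound held 2 to 30 (median 11), against a median of 16 over 13557 promoters of all autosomal genes that matched. The hexamer CACGTG, a palindrome that CLOCK and BMAL1 can bind, was found in 2 of the 22 promoters (9.09%; Cdhr3 and Cdh15) and in 8.64% of all matched promoters. The palindrome CGCG was found in 11 of the 22 (50%) and in 56.2% of all. These matches are a description of the letters in this window.

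The unclustered genes were bound more often than autosomal genes in general by 3 of the 4 profiles, and the clustered genes hardly at all. Bio-EZH1 bound 8 of the 38 unclustered genes (21.1%) and 0 of the 57 clustered genes at any time point, against 12.4% of all autosomal genes. SUZ12 bound 11 unclustered genes (28.9%) and 0 clustered genes, against 14.8% of all. H3K27me3 bound 13 unclustered genes (34.2%) and 1 clustered gene, against 22.9% of all. HA-EZH1 bound 3 unclustered genes (7.89%) and 0 clustered genes, against 10.2% of all. Over the 95 genes together the counts were 8, 11, 14 and 3, which are shares of 8.42%, 11.6%, 14.7% and 3.16%, each below that of all genes. Because the genes are few, these shares are descriptions and carry no test.

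**Figure D1:**
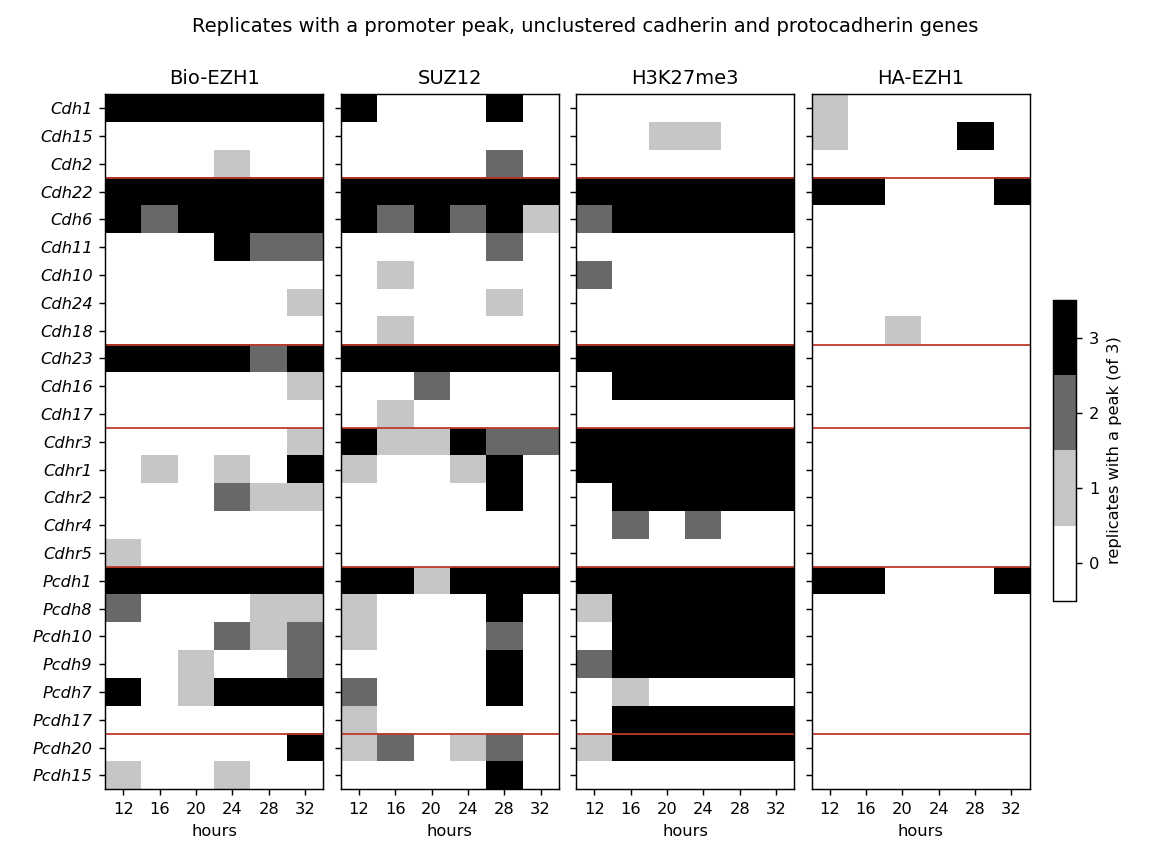
Number of replicates (0 to 3, grey scale) with a promoter peak at each time point (hours, horizontal axis) for the 25 unclustered genes that had one in any library, with red lines between the gene classes. Cdh22 was black at all 6 time points in 3 profiles, and a column of SUZ12 peaks stood at 28 h where the other SUZ12 time points were mostly empty.

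All of Bio-EZH1, SUZ12 and H3K27me3 bound 5 unclustered genes (13.2%) at some time point, against 10.7% of all autosomal genes. They were Cdh22, Cdh23, Cdh6, Cdhr1 and Pcdh1. Of the 8 unclustered genes bound by Bio-EZH1, 7 were bound by SUZ12 (87.5%) and 6 by H3K27me3 (75%), against 94.9% and 89.2% of all genes bound by Bio-EZH1. Of the 13 bound by H3K27me3, 8 were bound by SUZ12 (61.5%) and 6 by Bio-EZH1 (46.2%), against 58.3% and 48.2% of all genes bound by H3K27me3. Binding at all 6 time points was seen for 3 unclustered genes with Bio-EZH1 (7.89%; Cdh22, Pcdh1 and Cdh1), against 7.17% of all genes. It was seen for 2 with SUZ12 (5.26%; Cdh22 and Cdh23), against 4.6% of all, and for 5 with H3K27me3 (13.2%; Cdh22, Cdh23, Cdhr1, Cdhr3 and Pcdh1), against 9.66% of all.

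Cdh22, a type II classical cadherin best known from brain (chr2, 165111507 to 165234853), was the only one of the 95 genes bound at all 6 time points by these 3 profiles. The share of all autosomal genes bound in this way was not counted. Cdh23 fell short only with Bio-EZH1 (peaks in 17 of 18 libraries) and Pcdh1 only with SUZ12 (16 of 18). At Cdh22 the Bio-EZH1 fold enrichment was 26.0, 23.4 and 32.4 in the 3 replicates at 12 h, 19.5, 22.9 and 21.5 at 16 h and 19.7, 17.4 and 16.2 at 20 h. It was 35.1, 25.3 and 33.6 at 24 h, 29.1, 27.3 and 26.6 at 28 h and 43.5, 41.5 and 42.9 at 32 h. The 32 h replicates lay above those of every other time point, and in each library the peak ranked among the strongest, at a median percentile of 98.3 of all peaks in its list. Over the 1492 genes bound by Bio-EZH1 at all 6 time points, the median fold enrichment was likewise 11.0 to 12.1 at 32 h and 6.93 to 7.42 at 20 h. Over all peaks the medians ran the other way, at 2.99 to 3.18 at 32 h and 3.27 to 3.52 at 20 h. The part of the libraries in the time pattern of Cdh22 was not tested.

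SUZ12 at Cdh22 averaged 20.3 ± 2.98 fold at 12 h, then 8.52 ± 0.746 (16 h), 2.53 ± 0.946 (20 h) and 6.32 ± 0.403 (24 h), with 41.5 ± 5.57 fold at 28 h and 3.02 ± 0.195 fold in the last samples at 32 h (SD, n = 3 for each). The 28 h replicates (35.6, 42.2 and 46.7) stood above all others, and the 20 h and 32 h replicates were the lowest. Over the 957 genes bound by SUZ12 at all 6 time points the median fold enrichment was 18.2 to 20.7 at 28 h, 11.9 at 12 h in each replicate and 3.62 to 6.38 at the other time points. There, as at Cdh22, 28 h was highest and 12 h next, but 20 h (3.68 to 4.48) was not below 32 h (3.62 to 3.81). Over all SUZ12 peaks 28 h was not high (2.72 to 2.79), and the part of the libraries in the SUZ12 values of Cdh22 was not tested. HA-EZH1 peaks at Cdh22 were found in 3 of 3 replicates at 12, 16 and 32 h, with mean fold enrichments of 3.99 ± 0.388, 3.08 ± 0.467 and 3.14 ± 0.406 (SD, n = 3 each), and in 0 of 3 at 20, 24 and 28 h.

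Pcdh1, a delta protocadherin known from airway epithelium in human (chr18, 38185914 to 38212053), had the second highest mean Bio-EZH1 fold enrichment of the family (20.0, after 28.0 at Cdh22). Fold enrichment was 18.8, 12.4 and 15.3 at 12 h, 12.6, 10.5 and 11.7 at 16 h and 11.6, 11.2 and 12.0 at 20 h. It was 28.0, 25.7 and 31.8 at 24 h, 23.9, 29.1 and 24.3 at 28 h and 25.6, 26.8 and 28.3 at 32 h. The replicates from 24 h on did not overlap with those of 12 to 20 h. At Pcdh1 the mean of SUZ12 was 9.01 ± 1.02 fold at 12 h and 23.0 ± 2.41 fold at 28 h (SD, 3 replicates), while only 1 of 3 replicates had a peak at 20 h. H3K27me3 at Pcdh1 was weak among the peaks of its own lists, with a median fold enrichment of 2.73 and a median percentile of 18.02.

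**Figure D2:**
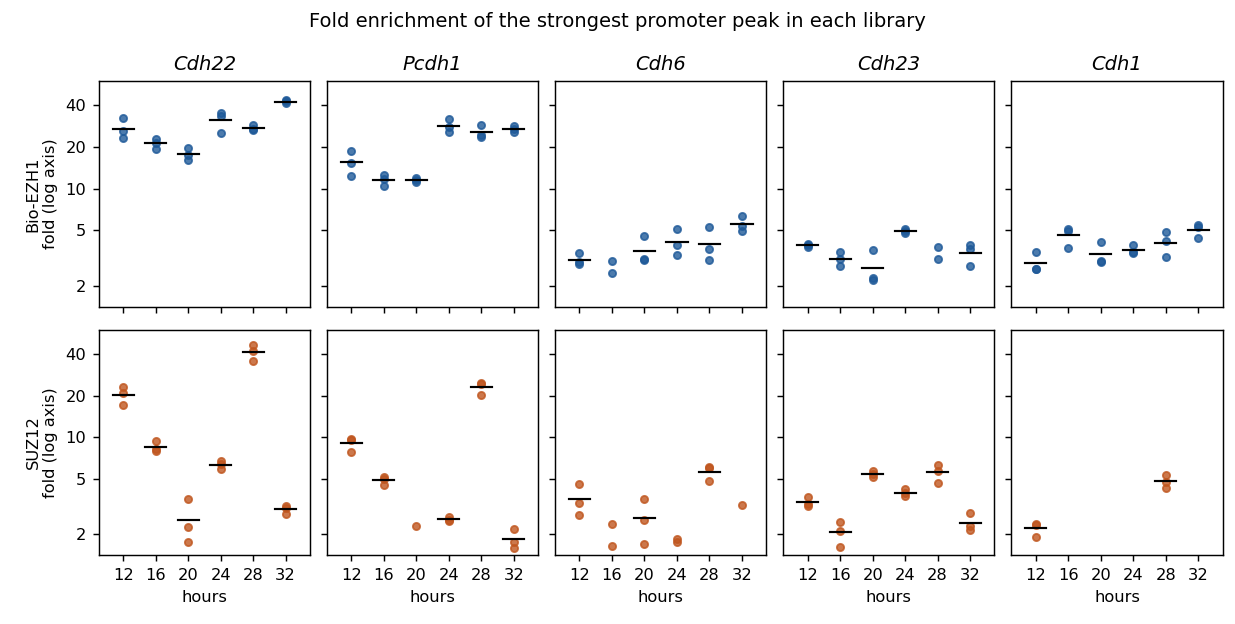
Fold enrichment (vertical, log axis) of the strongest promoter peak of 5 genes in each Bio-EZH1 library (top) and SUZ12 library (bottom) against time (hours), where points are replicates, bars are means of 3 and libraries with no peak show no point. Cdh22 and Pcdh1 were at 10.5 fold or above in every Bio-EZH1 library, and their SUZ12 values were highest at 28 h.

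Cdh1, which encodes the epithelial E-cadherin (chr8, 106603351 to 106670246), carried Bio-EZH1 without H3K27me3. All 18 Bio-EZH1 libraries had a promoter peak, with mean fold enrichments of 2.93 ± 0.483 (12 h), 4.62 ± 0.777 (16 h), 3.37 ± 0.643 (20 h), 3.61 ± 0.263 (24 h), 4.09 ± 0.819 (28 h) and 5.06 ± 0.558 (32 h; SD over 3 replicates). The ranges of neighbouring time points overlapped except between 12 and 16 h, and no H3K27me3 library had a peak there. SUZ12 was found in 3 of 3 replicates at 12 h (2.33, 1.91 and 2.38 fold) and at 28 h (5.35, 4.28 and 4.74 fold), and in 0 of 3 at 16, 20, 24 and 32 h. Over the 957 genes bound by SUZ12 at all 6 time points, 12 and 28 h were also the time points with the highest median fold enrichments, whereas over all SUZ12 peaks the medians were 2.71 to 2.95 at 12 h, 2.72 to 2.79 at 28 h and highest at 20 h (3.35 to 3.52).

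Cdh6, the type II K-cadherin of kidney and neural crest (chr15, 13028701 to 13173675), had Bio-EZH1 peaks in 17 of 18 libraries, SUZ12 peaks in 14 and H3K27me3 peaks in 17. Its H3K27me3 peaks were short, with a median length of 3518 bp and a range of 3161 to 4695 bp, and their middles lay a median of 93 bp from the start site. Bio-EZH1 fold enrichment ranged from 2.47 to 6.39, and the mean was highest at 32 h, where the replicates were 5.38, 6.39 and 4.94. Cdh23, a long cadherin of the tip links of inner ear hair cells (chr10, 60302748 to 60696490), had Bio-EZH1 peaks in 17 libraries and SUZ12 and H3K27me3 peaks in 18 each. Its Bio-EZH1 and SUZ12 summits lay at medians of -2494 and -2650.5 bp from the start site (upstream), and with a window of 1 kb it was bound by neither at any time point.

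Pcdh7, a delta protocadherin (chr5, 57717967 to 58133230), had Bio-EZH1 in 3 of 3 replicates at 12, 24, 28 and 32 h, 0 of 3 at 16 h and 1 of 3 at 20 h, with fold enrichments between 2.46 and 4.23. Only 1 H3K27me3 library had a promoter peak there. Cdhr1, a cadherin-related gene of photoreceptors, and Pcdh20 were bound by Bio-EZH1 only at 32 h, where the 3 replicates had 3.18, 2.76 and 2.52 fold at Cdhr1. Neither was bound by Bio-EZH1 at a q-value under 0.001. Cdhr3, known in human as an airway epithelial receptor of rhinovirus C, had H3K27me3 peaks in 18 libraries and SUZ12 peaks in 12, but the SUZ12 peaks of a time point did not all overlap. Cdh11, a type II cadherin of mesenchymal cells and bone, had Bio-EZH1 peaks in 7 libraries, all at 24, 28 or 32 h, but those of the 3 replicates at 24 h did not all overlap and it was not called bound.

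SUZ12 was found at more of these genes at 28 h than at any other time point. At 28 h it bound 11 of the 38 unclustered genes (28.9%), against 13.6% of all autosomal genes, while it bound 5 at 12 h (13.2%, against 11.4%) and 3 at each of 16, 20, 24 and 32 h (7.89%, against 5.74% to 8.77%). A group of 6 unclustered genes (15.8%), Pcdh7, Pcdh8, Pcdh9, Pcdh15, Cdhr1 and Cdhr2, were bound by SUZ12 at 28 h and at no other time point, against 2.2% of all genes. Pcdh9, Pcdh15 and Cdhr2 had SUZ12 promoter peaks at 28 h only. Pcdh7 also had one in 2 of 3 replicates at 12 h, Pcdh8 in 1 at 12 h and Cdhr1 in 1 at each of 12 and 24 h. The 28 h peaks of these 6 genes were low. At Pcdh15, the partner of Cdh23 in tip links, the 3 replicates had 2.02, 2.17 and 2.28 fold. At Pcdh9 they had 2.66, 2.77 and 2.11 fold, at Cdhr2, a cadherin of intestinal microvilli, 2.64, 2.84 and 3.00 fold, and at Pcdh7 2.96, 3.13 and 3.4 fold.

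**Figure D3:**
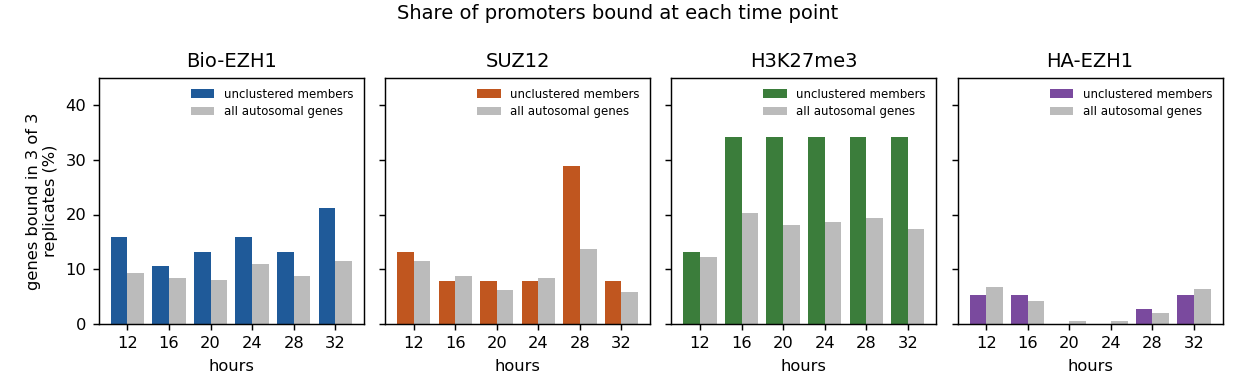
Percent of the 38 unclustered genes (coloured bars) and of all 20807 autosomal protein-coding genes (grey bars) bound in 3 of 3 replicates at each time point (hours). The coloured SUZ12 bar reached 28.9% at 28 h beside a grey bar of 13.6%, and the coloured H3K27me3 bars were 13.2% at 12 h and 34.2% later.

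To ask whether peak presence differed between time points, the number of replicates with a peak was compared with all assignments of the same number of peaks to the 18 libraries (exact test, Benjamini-Hochberg adjustment over all autosomal genes with a peak in 3 to 15 libraries). With SUZ12, 5 of the 11 testable genes changed over time (45.5%), against 41.4% of the 2284 genes tested. They were Cdh1 (exact test, adjusted p = 0.00541), Pcdh7 (adjusted p = 0.0254) and Pcdh9, Pcdh15 and Cdhr2 (adjusted p = 0.0216 each). All 5 had a peak in 3 of 3 replicates at 28 h, and the share of the family was near that of all genes. Without the 28 h libraries, a comparison chosen after the data had been seen, SUZ12 bound 5 of the 38 unclustered genes at any time point (13.2%), against 12.6% of all genes. The same test then called 1 of 4 testable members (25%), against 28.9% of 1752 genes.

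With H3K27me3, 4 of 6 testable genes changed over time (66.7%), against 38.7% of 2574 genes tested. Pcdh10, Pcdh17, Cdh16 and Cdhr2 each had a peak in 0 of 3 replicates at 12 h and in 3 of 3 at each later time point (exact test, adjusted p = 0.0208 each). With HA-EZH1, Cdh22 and Pcdh1 changed over time (exact test, adjusted p = 0.00274 each), 2 of 3 testable genes (66.7%), against 51.7% of 3065. Their peaks fell at 12, 16 and 32 h. Over all genes HA-EZH1 bound 6.7%, 4.19% and 6.42% at those time points and 0.538%, 0.461% and 1.89% at 20, 24 and 28 h, although the lists of 20 and 24 h were the longest of that profile, with 8239 to 13137 peaks.

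With Bio-EZH1, 0 of 8 testable genes were called over time by the exact test, and 0 of the 1427 genes tested (0%). An unadjusted p under 0.05 was found for 3 of the 8 (Pcdh7, Cdh11 and Pcdh20) and for 332 of all. By limma's F test on the percent of the promoter window covered by peaks, 4 of the genes changed over time with Bio-EZH1. They were Pcdh7 (limma, adjusted p = 3.18e-05), Pcdh20 (0.00271), Pcdh1 (0.003) and Cdh6 (0.0174). That test called 1737 of the 3186 genes it was run on. The number of family members among those 3186 was not counted, so no share of the family is given. With 2 replicates per time point the exact test called 0 genes of any profile, whichever replicate was left out, and the smallest p it can give is then 0.0216.

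At 8 of the 13 unclustered genes that carried it, H3K27me3 was bound from 16 h on but not at 12 h. These genes (21.1% of 38), Cdh6, Cdh16, Cdhr2, Pcdh8, Pcdh9, Pcdh10, Pcdh17 and Pcdh20, were bound at each later time point, against 5.86% of all autosomal genes. At Pcdh10, a delta protocadherin of axon outgrowth, the replicates had 3.03, 3.44 and 3.32 fold at 16 h and 3.87, 3.89 and 3.79 at 32 h, with no peak at 12 h. At Pcdh17 they had 3.02, 2.72 and 3.00 fold at 16 h and 3.73, 3.49 and 3.23 at 32 h. Pcdh9 and Cdh6 each had a peak in 2 of 3 replicates at 12 h, and Pcdh8 and Pcdh20 in 1 of 3, all weaker than the same gene's mean at 16 h. The 5 genes bound at all time points were also low at 12 h: Cdh22 averaged 1.85 ± 0.0489 fold there and 5.67 ± 0.135 fold by 16 h (SD over 3 replicates). The 12 h libraries had lower fold enrichments in general. Over the 2010 genes bound at all 6 time points the median fold enrichment was 2.31 to 2.38 at 12 h and 3.77 to 4.39 later, and 12.2% of all genes were bound at 12 h against 17.4% to 20.3% later. The 12 h lists were not shorter, with 24490 to 28105 peaks against 18542 to 24907 later, and covered 6.04% to 7.06% of the autosomes, within the range of the later lists (5.52% to 8.1%). The part of the 12 h libraries in the pattern of these genes was not tested.

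Over the gene bodies, H3K27me3 formed domains at a few members. Peaks covered 41.5%, 49.5% and 49.8% of the 123347 bp of Cdh22 at 12 h, 96.2%, 97.1% and 97.7% at 16 h and 92.7% to 100% in every later library. Cdhr2 (35202 bp) was covered to 0%, 2.11% and 3.28% at 12 h and to between 78.8% and 89.7% in all 15 later libraries. Cdh23 (393743 bp) was covered to 17.8%, 27.5% and 26.8% at 12 h and to between 57.2% and 69.1% later. Pcdh20 was covered to 30.9%, 0% and 0% at 12 h and to between 44.1% and 60.3% later. Cdhr3 was covered to 27.4%, 25.8% and 21.2% at 12 h and to between 28.8% and 35.3% later. At Cdhr1 the ranges overlapped, with 7.73%, 34.1% and 15.4% at 12 h and between 21.5% and 55.7% later. At the first 4 genes every 12 h replicate lay below every later one, and genes of this kind were not counted over all autosomal genes. Among the 2647 autosomal genes with an H3K27me3 peak over the gene in all 18 libraries, the median coverage was 35.3% to 35.8% at 12 h and 51.2% to 68.7% later, in the same direction.

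**Figure D4:**
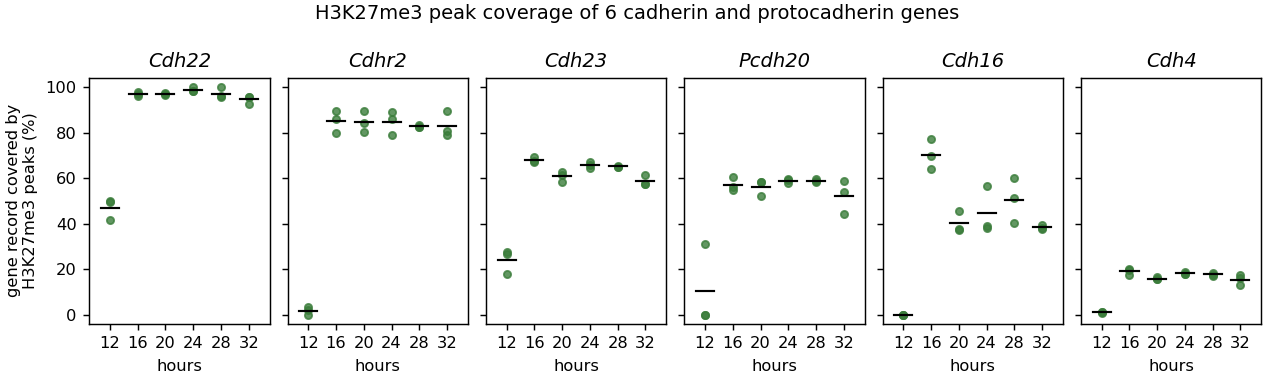
Percent of the gene record covered by H3K27me3 peaks in each library (points, bars are means of 3) against time (hours) for 6 genes. Cdh22 was above 92% in every library from 16 h on, and Cdh4, which had no promoter peak, was covered to between 13.1% and 20.2% over the same libraries.

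Cdh4, which encodes R-cadherin and spans 456943 bp, had no promoter peak in any of the 72 libraries, yet H3K27me3 peaks lay over the gene in all 18 libraries. They covered 1.05%, 1.01% and 0.801% at 12 h, 17.5%, 19.4% and 20.2% at 16 h and between 13.1% and 18.8% later. The longest of them in each library was centred between 394 and 446 kb downstream of the start site, in the 3′ part of the gene, so the promoter window missed it. Peaks over other long genes were scattered: SUZ12 had a peak over Pcdh9 (877270 bp) in 18 of 18 libraries, but covered at most 0.952% of it. HA-EZH1 had one over Cdh18 in 16 of 18 libraries with at most 1.8% covered. A peak over the gene was found in at least 1 library for 22 of the 38 unclustered genes with Bio-EZH1 (57.9%), against 28% of all autosomal genes, but the median length of the unclustered genes was 78078 bp against 17629 bp over all genes.

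Of the 5 cadherins of muscle and related tissue, Cdh4 and Cdh13 had no promoter peak and Cdh2 and Cdh15 had few. Cdh11 had Bio-EZH1 peaks in 7 libraries and SUZ12 peaks in 2, but was not called bound. Cdh15 had no Bio-EZH1 or SUZ12 promoter peak in any library and 2 isolated H3K27me3 peaks at the edge of the window. HA-EZH1 was found there in 3 of 3 replicates at 28 h (4.04, 4.62 and 4.1 fold) with summits about 3 kb inside the gene, in 1 of 3 at 12 h and in 0 of 3 at the other time points. It was not called over time by the exact test, though it was by limma (adjusted p = 4.03e-06). The promoter of Cdh2 had a single Bio-EZH1 peak at 24 h and 2 SUZ12 peaks at 28 h. Over the Cdh2 gene, HA-EZH1 peaks covered 2.39%, 2.67% and 2.24% at 20 h, 1.56%, 2.02% and 1.96% at 24 h, 0.166% in 1 library of 12 h and 0% in the other 11. The 20 and 24 h replicates thus stood above all others, at the time points at which the HA-EZH1 lists were longest, and the part of list length was not tested. Cdh13, the GPI-anchored T-cadherin, had no promoter peak in any library. In all, 13 of the 38 unclustered genes (34.2%) had no promoter peak in any of the 72 libraries, against 45.8% of all autosomal genes. They were Cdh3, Cdh4, Cdh5, Cdh7, Cdh8, Cdh9, Cdh12, Cdh13, Cdh19, Cdh20, Cdh26, Pcdh12 and Pcdh18. The remaining genes with any peak, Cdh10, Cdh17, Cdh18, Cdh24, Cdhr4 and Cdhr5, had 1 to 4 libraries with a peak in a profile, and Cdh24, Cdhr4 and Cdhr5 have the start site of another gene within 6 kb.

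By class, Bio-EZH1, SUZ12 and H3K27me3 bound 1, 1 and 0 of the 5 type I classical cadherins and 2, 2 and 2 of the 13 type II classical cadherins. They bound 1, 1 and 2 of the 5 other cadherins and 1, 2 and 3 of the 5 cadherin-related genes. Of the 7 delta protocadherins they bound 2, 4 and 5, the largest share with SUZ12 and H3K27me3, and of the 3 other unclustered protocadherins 1, 1 and 1. The classes are small and were not compared by a test.

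The clustered protocadherins lie on chromosome 18 between 36930184 and 37841873, a locus of 912 kb. Of the 57 clustered genes, 54 (94.7%) had no promoter peak in any of the 72 libraries, against 45.8% of all autosomal genes. The 3 exceptions were Pcdhac2, with H3K27me3 peaks in 8 of 18 libraries, Pcdhgb1, with 1 Bio-EZH1 library, and Pcdhgc3, with 1 Bio-EZH1 and 1 HA-EZH1 library. Pcdhac2, a C-type gene of the alpha group, had peaks in 0, 1, 3, 1, 1 and 2 replicates at 12, 16, 20, 24, 28 and 32 h, with fold enrichments between 2.41 and 3.13, and was bound at 20 h only. No gene of the beta group had a promoter peak in any library. Pcdhac2 was testable with H3K27me3 and not called over time.

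Peaks covered little of the locus. The mean over 18 libraries was 0.0464% for Bio-EZH1, 0.157% for SUZ12, 0.0728% for H3K27me3 and 0.0104% for HA-EZH1, while peaks of the same lists covered 0.758%, 1.8%, 6.78% and 0.143% of the autosomes. The locus was below the autosomes in all 18 libraries of each profile. The H3K27me3 value depended on the settings, at 0.212% with all peaks as deposited, 0.167% with lists of equal length and 0.011% at a q-value under 0.001. By time, SUZ12 covered 0.244 ± 0.0579% (12 h), 0.126 ± 0.0449% (16 h), 0.198 ± 0.113% (20 h), 0.176 ± 0.0331% (24 h), 0.0595 ± 0.0569% (28 h) and 0.137 ± 0.129% (32 h; SD over 3 replicates), which largely overlap. H3K27me3 ranged over means of 0% at 12 h to 0.16 ± 0.0355% at 20 h, Bio-EZH1 of 0% at 28 h to 0.0758 ± 0.0733% at 12 h and HA-EZH1 of 0% to 0.0506 ± 0.0578% (SD, n = 3 each). The clustered genes are close copies of each other, and the authors kept only reads with a high mapping quality. Whether that lowered the number of peaks here was not tested.

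**Figure D5:**
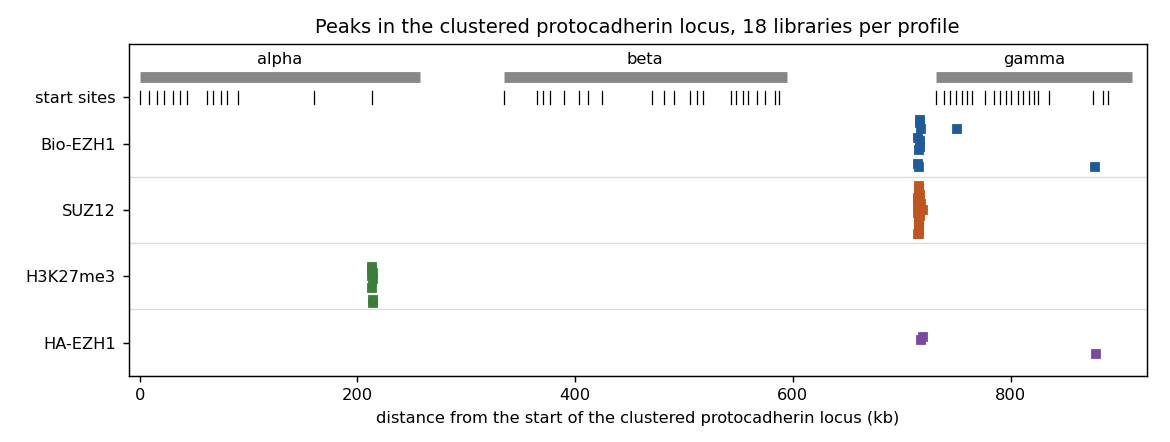
Middle of each peak with q under 0.01 (squares, 18 libraries per profile stacked by time from the top) against distance from the start of the clustered protocadherin locus (kb), below the start sites (ticks) and extents (bars) of the alpha, beta and gamma groups. SUZ12 and Bio-EZH1 peaks recurred at 1 place between the beta and gamma groups, in 16 and 9 libraries, and H3K27me3 peaks at 1 place in the alpha group, in 8 libraries.

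Most of the Bio-EZH1 and SUZ12 peaks in the locus were at a single place outside the protocadherin genes (chr18, 37645029 to 37648516). The near edge of this place was 825 bp from the start site of Taf7. Taf7 encodes a general transcription factor subunit and lies between the beta and gamma groups. SUZ12 had a peak there in 16 of 18 libraries, with 3, 3, 3, 3, 2 and 2 replicates at 12, 16, 20, 24, 28 and 32 h, and Bio-EZH1 in 9, with 2, 1, 2, 2, 0 and 2 replicates. HA-EZH1 had a peak in 1 library and H3K27me3 in none. Fold enrichments there were 2.4 to 4.77.

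Related genes were counted for comparison. Of 22 other genes of the cadherin superfamily, Bio-EZH1 bound 8 (36.4%), SUZ12 9 (40.9%), H3K27me3 10 (45.5%) and HA-EZH1 1 (4.55%), against 12.4%, 14.8%, 22.9% and 10.2% of all autosomal genes. The atypical cadherins Dchs1, Dchs2 and Celsr3, of planar cell polarity and growth control, had peaks in all 18 libraries of Bio-EZH1, SUZ12 and H3K27me3. None of the 9 desmosomal cadherins was bound. Dsc1, Dsc2, Dsc3 and Dsg2 had no peak in any library, Dsg1a had SUZ12 peaks in 3 libraries, Dsg1b, Dsg1c and Dsg4 in 1 each, and Dsg3 had HA-EZH1 peaks in 3. The exact test over time called 0 of 1 testable gene of the 22 with Bio-EZH1, 4 of 7 with SUZ12, 3 of 4 with H3K27me3 and 0 of 6 with HA-EZH1, against 0%, 41.4%, 38.7% and 51.7% of all genes tested. Of 12 catenins and plakophilins, the cytoplasmic partners of cadherins, Bio-EZH1 bound 3 (25%; Pkp1, Ctnnd2 and Arvcf), SUZ12 1 (8.33%), H3K27me3 0 and HA-EZH1 0. Ctnnb1, which encodes β-catenin, had no promoter peak in any library. Of 9 genes for regulators of the clustered protocadherins, 1 was bound by each of Bio-EZH1, SUZ12 and H3K27me3 (11.1%; Wiz) and 2 by HA-EZH1 (22.2%; Ctcf and Wiz).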

How the data were processed

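Per the submitters' processing notes, the deposited lists are MACS2 (2.2.4) peak calls, 1 per library, aligned to mm10 with BWA (0.7.17) and filtered with SAMtools (1.7) and Picard. The authors kept reads of high mapping quality. The step behind the word filtered in the list names is not given in the sources used here. The deposited columns used were the fold enrichment (a ratio over local background), the −log10 q-value as MACS2 writes it, and the peak position and summit. Narrow peaks reached q-values of 0.05 and broad H3K27me3 peaks 0.1, so a q-value under 0.01 was required of both. The depth of each library is unknown, so no interval was given for counting error.

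TSSs were the 5′ ends of gene records in GENCODE release M21 (mm10). Presence of a peak was tested over the 6 time points with an exact test, in which the sum of squared replicate counts was compared with all assignments of the peaks to 18 libraries, and p-values were adjusted over all genes with a peak in 3 to 15 libraries. The alternative on window coverage used limma (3.58.1) in R (4.3.3). All other steps used Python (3.11.15) with numpy (2.4.6). The tests were checked on simulated data. There the exact test called 126, 137, 80 and 121 of 200 changes for Bio-EZH1, SUZ12, H3K27me3 and HA-EZH1. Among unchanged genes it called 1, 0, 1 and 1. In that simulation no change at a single time point was called, and none with peaks missing at a single time point. The calls of Pcdh9, Pcdh15 and Cdhr2 with SUZ12 and of Pcdh10, Pcdh17, Cdh16 and Cdhr2 with H3K27me3 are of those kinds. Peaks were placed for each gene on its own, so differences between whole libraries were not part of the simulation. It therefore cannot show how often such differences lead to a call. Genes named were those bound by an EZH1 or SUZ12 profile or called over time, 5 cadherins of muscle and related tissue, genes without a peak and clustered genes by group. Members and lists were chosen with earlier results of these data known. Alternatives varied the q-value, window, start sites, list length, overlap rule and replicates.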

Additional observations from a re-analysis of the deposited data

Results flagged for a closer look

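At Cdhr1, the profiles moved in opposite directions between 28 and 32 h. Bio-EZH1 had a promoter peak in 3 of 3 replicates at 32 h and in 0 of 3 at 28 h, while SUZ12 had one in 0 of 3 replicates at 32 h and in 3 of 3 at 28 h. The libraries of 28 and 32 h are separate samples, and the difference between the profiles was not tested. Over the 6 time points the exact test called neither profile at Cdhr1 (adjusted p = 0.209 for Bio-EZH1 and 0.118 for SUZ12). At a q-value under 0.001 Bio-EZH1 did not bind it. The Bio-EZH1 peaks had 3.18, 2.76 and 2.52 fold enrichment at 32 h, and the SUZ12 peaks 2.57, 3.16 and 3.25 fold at 28 h. Over all genes, the lists at 32 h held 11.4% of promoters bound by Bio-EZH1 and 5.74% by SUZ12, and those at 28 h held 8.81% and 13.6%.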

How the results depend on the processing

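The number of members bound at any time point stayed within 1.5 times the reported count under the other settings tried, except without the 28 h libraries and when a peak anywhere over the gene counted. In the second case H3K27me3 bound 31 (17 unclustered and 14 clustered, the clustered ones all through 1 place inside overlapping records of the alpha group) and HA-EZH1 7, against 28.2% and 14.4% of all genes. The ranges without 1 replicate were 10 to 10 for Bio-EZH1, 12 to 14 for SUZ12, 14 to 16 for H3K27me3 and 3 to 3 for HA-EZH1. Without the 28 h libraries, an alternative chosen after seeing the data like the others that leave out a time point, SUZ12 bound 5. Of 35 pairs of gene and profile, 4 were no longer bound at a q-value under 0.001, 5 with a window of 1 kb and 4 with lists of equal length.

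The number of members called over time was less stable. At a q-value under 0.001 it was 1 for Bio-EZH1 and 3 for SUZ12, and 3 for SUZ12 with lists of equal length. By limma it was 4 for Bio-EZH1, 10 for SUZ12, 10 for H3K27me3 and 3 for HA-EZH1, with the number of members tested not counted. Over all genes limma called 1737 of 3186, 2644 of 3638, 3396 of 5281 and 2124 of 3110. The exact test called 0 of 1427, 945 of 2284, 996 of 2574 and 1586 of 3065. By the exact test the number of members called was 0 for each profile without replicate 1, 2 or 3. Without the 28 h libraries it was 1 of 4 testable members for SUZ12, against 28.9% of 1752 genes. Without 12 h it was 0 of 2 for H3K27me3, against 0 of 1465 genes. Without 20 and 24 h it was 0 of 3 for HA-EZH1, against 0 of 2714 genes. The settings that leave out a replicate or a time point also hold fewer libraries, and the cause of these shifts was not tested. Coverage of the clustered locus by H3K27me3 was 0.212% with all peaks as deposited and 0.167% with lists of equal length. Leaving out a replicate moved it over 0.0283% to 0.0696% for Bio-EZH1, with the highest value without replicate 3.

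Within a profile, same-numbered libraries did not deviate together on average (mean r between -0.00469 and 0.00225 over 45 pairs per profile). This gave no sign of pairing by number within a profile and does not speak to pairing between profiles. With the replicate number as a block, 0 members were called for Bio-EZH1, 1 for SUZ12, 0 for H3K27me3 and 2 for HA-EZH1, against 0, 341, 0 and 1037 of all genes. Between 4 and 8 of 18 libraries per profile correlated best with their own number.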
